A study of Mus musculus with 3 samples.

Results

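The major urinary proteins are small secreted carrier proteins of the lipocalin family, encoded by the Mup genes. Every probe set whose annotated gene symbol begins with Mup and a digit was taken, which gave 4 of the 45037 probe sets that were not array controls. They name 3 genes, Mup3 (probe sets 1427631_x_at and 1427249_x_at), Mup5 (1426166_at) and Mup10 (1430893_at), of the 18193 genes with a probe set of their own. Mup4, Mup20 and Mup21 were named by no listed probe set and were not analysed here, and no probe set that lists several genes had a Mup among them. The RefSeq gene table holds 22 Mup genes, all on chromosome 4, so most of the family is seen here only as far as its transcripts bind these probes. The annotation left 9160 probe sets unnamed, and whether any of these were made for Mup genes was not analysed.

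Hepatocytes make major urinary proteins in large amounts, release them into blood and pass them to the urine through the kidney. In urine they bind volatile pheromones in a barrel-shaped pocket and release them slowly, and they also mark the individual. Their genes are more active in male than in female liver and need pulses of growth hormone, together with thyroid hormone and glucocorticoid. Many of the genes are nearly identical copies in a single cluster, and Mup promoters are used to drive transgenes in hepatocytes.

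Whole liver RNA came from mice aged 3 months, of mixed strain background, whose livers were collected 1 week after 1 intraperitoneal dose of 400 microL of virus. The vectors were adeno-associated virus, serotype 8. The control virus, MUP-EGFP-AAV8, carried the green fluorescent protein EGFP (n = 2 mice), and the other, MUP-iCre-AAV8, the recombinase iCre, which cuts out floxed DNA (n = 1 mouse). Both therefore carry MUP in their names, so both groups received a vector named for a Mup promoter. By the design text all mice carried floxed Hnf4a, whose product HNF4alpha is a nuclear receptor of hepatocytes, but by the labels of the single samples the controls were wild type and the Cre mouse an HNF4alpha knockout. The sources thus leave unsettled whether the groups also differed in genotype before injection, and no uninjected liver is in the series. In bulk liver, fewer hepatocytes and less RNA per hepatocyte cannot be told apart.

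Values are log2 expression, and differences are Cre minus the control mean, with limma's moderated standard error (SE). A gene rose or fell only where its limma adjusted p was under 0.05, adjusted over 31526 probe sets whose mean over the arrays reached 3.17. The medians of the 3 arrays lay between 4.15 and 4.18, and all arrays ended at 15.05. Pearson's r across probe sets, which are not independent, was 0.992 between the controls and 0.970 and 0.972 between the Cre liver and each control. All 4 probe sets of Hnf4a lay below both controls after Cre virus, and 1 of them, 1421983_s_at, fell (7.69 and 7.72 in the controls, 6.52 with Cre; limma adjusted p = 0.0364). The brightest, 1427001_s_at, was at 11.91 and 11.96 in the controls against 11.38 with Cre, a difference of -0.55. It did not pass, though it did in 5 of 9 other settings. Where the probes of the 4 sets lie relative to the floxed part was not analysed here. Of the fitted probe sets 4.29% changed, and 45.2% of these changes were rises (61.3% after median centring of the arrays).

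The upstream sequences of Mup3 and Mup10 are shown because both viruses are named for a Mup promoter. The windows are the 250 bases before the annotated start in RefSeq, build GRCm38.p6, at chr4:62087318-62087567 for Mup3 and chr4:60582156-60582405 for Mup10, both on the minus strand and written 5′ to 3′. Capitals mark the longest run of letters that both share.
Mup3: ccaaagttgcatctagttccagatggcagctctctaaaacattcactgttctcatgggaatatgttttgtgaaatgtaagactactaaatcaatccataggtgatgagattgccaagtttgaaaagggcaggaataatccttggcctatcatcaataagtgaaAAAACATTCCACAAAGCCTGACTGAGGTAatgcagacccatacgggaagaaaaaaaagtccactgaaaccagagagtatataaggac
Mup10: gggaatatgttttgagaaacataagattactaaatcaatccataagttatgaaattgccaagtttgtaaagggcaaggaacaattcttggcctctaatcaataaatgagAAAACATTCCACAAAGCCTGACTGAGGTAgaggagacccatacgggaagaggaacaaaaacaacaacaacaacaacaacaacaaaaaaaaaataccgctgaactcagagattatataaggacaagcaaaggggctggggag
The shared run is 29 bases long and starts 87 bases before the Mup3 start and 141 before the Mup10 start. Of 32851 promoter windows in the table, only these 2 hold it in full, out of 14 Mup windows.

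Short motifs were searched on both strands of the same windows. The HNF4 motif CAAAGTCCA was in 0 of 14 Mup windows and in 0.384% of all windows, so rare that its absence from 14 says little. Only exact matches were counted, and the Mup3 window holds aaaagtcca, which differs from the HNF4 motif in its first letter. The STAT5 motif TTCNNNGAA, for the factor that carries the growth hormone signal, was in 0 of 14 and in 7.02%. At that share too, absence from 14 short windows says little. The C/EBP motif TTNNGNAA was in 14 of 14 Mup windows, with 2 matches for Mup3 and 4 for Mup10, against 36.8% of all windows. The TATA box letters TATAAA were in 2 of 14 Mup windows and 12.4% of all, in neither Mup3 nor Mup10. The variant TATATAAGG, picked after the windows had been read, was in 8 of 14 Mup windows, searched on the gene's strand only, and in 72 of the 32851 windows. It starts 11 bases before the Mup3 start and 30 before that of Mup10. None of the first 4 motifs other than that for C/EBP occurs in the Mup3 or Mup10 window, so no matches of different motifs overlap there. The 14 Mup windows belong to similar genes of a single cluster, so they are not independent of each other. These are matches of letters, not measured binding.

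Every Mup probe set had its lowest value in the Cre liver, below both controls, and none of the 4 passed the test. Among all fitted probe sets 36.5% lay below both controls, 2.35% fell and 1.94% rose. The 4 differences ran from -1.41 to -0.20, with a median of -0.81, against 0.03 over all fitted probe sets. That median was -0.53 when control 2 was left out. By limma's unadjusted p, 1 of the 4 was under 0.05, against 8.81% of all fitted probe sets that were lower at that level.

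Mup3 encodes a major urinary protein of the divergent, peripheral part of the cluster. Its bright probe set 1427631_x_at was at 13.91 in control 1, 13.98 in control 2 and 13.74 in the Cre liver. The Cre value was the lowest, by 0.17 from the nearer control, and the controls were 0.08 apart. The difference was -0.20 ± 0.08 SE (limma adjusted p = 0.231), a 1.15-fold lower level whose 95% interval ran from 1.34-fold lower to 1.01-fold higher. After quantile normalization the difference was -0.08 (limma adjusted p = 0.633). The control mean lay 1.10 below the highest value on the arrays, and whether these probes were near the end of their range was not tested.

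The other Mup3 probe set, 1427249_x_at, was far from that small difference. It was at 4.37 and 4.99 in the controls, against 3.35 after Cre virus. The Cre value was below both controls, as in all 4 Mup probe sets and in 36.5% of all fitted probe sets. It was 1.02 below the nearer control. The difference was -1.33 ± 0.32 SE, 2.52-fold lower, with a 95% interval from -2.21 to -0.45 (limma adjusted p = 0.113). This is 1 of the 4 Mup probe sets at least 1 log2 unit below both controls, as were 2.54% of all fitted probe sets. It passed after median centring (adjusted p = 0.0288) and after quantile normalization (adjusted p = 0.0283), at much the same difference (-1.32 and -1.29). Its Cre value was close to the 3.17 of the filter on dim probe sets, so the size is uncertain. Both Mup3 probe sets carry the suffix _x_at, which marks probes that can bind other, similar transcripts, so neither can be read as Mup3 alone.

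Mup10 belongs to the large central group of nearly identical genes. Whether its probe set also binds their transcripts was not analysed, so the values may not be those of Mup10 alone. Probe set 1430893_at was at 10.13 in control 1, 11.56 in control 2 and 9.44 in the Cre liver. The Cre liver was lowest, but the 2 controls lay farther from each other than the Cre liver lay from control 1. The difference was -1.41 ± 0.63 SE (limma adjusted p = 0.276), with a 95% interval from 8.83-fold lower to 1.26-fold higher. It was -2.12 against control 2 alone and -0.69 against control 1 alone. The controls were 1.43 apart, a 2.70-fold gap that was wider than in 99.8% of the fitted probe sets. Over all fitted probe sets 0.615% had controls at least 1 log2 unit apart.

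Mup5, another divergent member of the cluster, was steadier. Probe set 1426166_at was at 6.77 and 6.63 in the controls, against 6.40 after Cre virus. The Cre value was lowest by 0.22, and the controls were 0.14 apart. The difference was -0.29 ± 0.16 SE (limma adjusted p = 0.353), with a 95% interval from 1.67-fold lower to 1.11-fold higher. Levels of different probe sets cannot be ranked against each other, since each binds its target with its own strength.

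**Figure D1:**
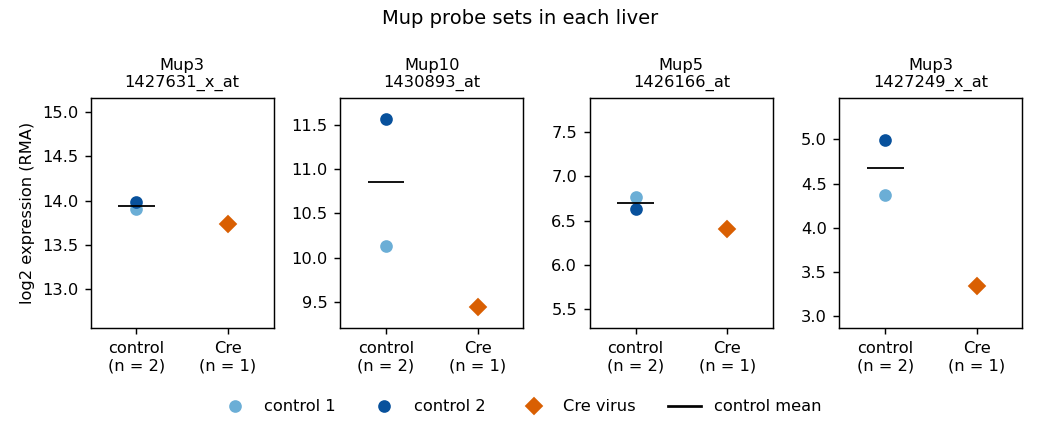
Log2 expression (vertical axis, each panel spanning the same number of log2 units) of the 4 Mup probe sets in control liver 1, control liver 2 and the Cre liver, with the control mean as a line. The Cre liver is lowest in each panel, and the controls of Mup10 are 1.43 apart.

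**Figure D2:**
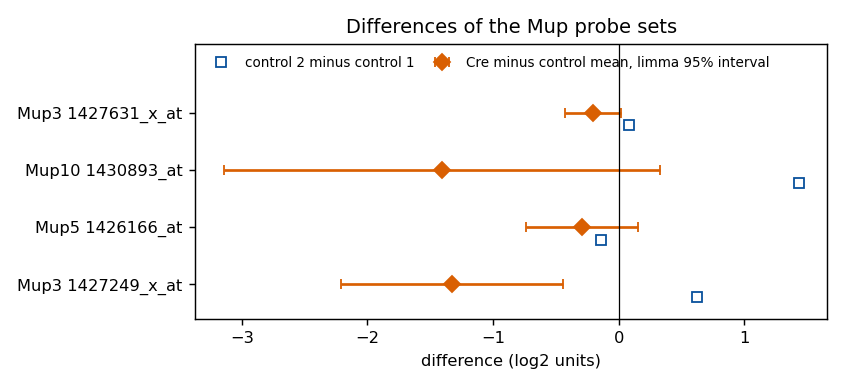
Differences in log2 units (horizontal axis) for each Mup probe set. Diamonds are Cre minus the control mean with limma's 95% interval, and open squares are control 2 minus control 1; the interval excludes 0 only for Mup3 1427249_x_at, at -1.33.

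Male-biased genes of mouse liver, which like the Mup genes depend on pulsed growth hormone, were set beside the family. Of 15 fitted genes in that list 9 fell and none rose, with a median difference of -1.63, and the count of those that changed lay between 8 and 12 in 9 other settings. Keg1, a glycine acyltransferase-like gene, was at 9.99 and 10.7 in the controls against 4.55 (-5.81 ± 0.35 SE, limma adjusted p = 0.0091). Hsd3b5, a steroid-reducing enzyme, was at 11.1 and 11.3 against 7.39, and fell by 3.82 on the log2 scale (limma adjusted p = 0.0039). Slco1a1, an organic anion carrier, fell by 3.65, and Ugt2b38, a glucuronosyltransferase, fell by 4.41. Cyp2d9 (-2.23) and Cyp7b1 (-1.55), cytochrome P450 enzymes, fell too.

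Other male-biased genes did not pass. Elovl3, a fatty acid elongase, was at -0.91 (limma adjusted p = 0.107, or 0.0238 with median-centred and 0.0112 with quantile-normalized arrays). Cyp4a12a was at -0.18 (0.06 against control 1 alone). Gstp1, a glutathione transferase, was at 0.09. The Mup differences thus lay within the range of this list, from -5.81 to 0.09, and whether the Mup genes moved less than the list was not tested.

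Genes with higher levels in female liver went the other way only in part. Of 9 fitted genes 4 rose and none fell, with a median of 1.07. They were Acot3, an acyl-CoA thioesterase (4.18), Cyp17a1, a steroid hydroxylase (2.82), Cyp2b9 (1.48) and Rtn4 (1.07, or 0.39 as the mean of its probe sets, which did not pass). Fmo2, a monooxygenase, did not pass (1.09, limma adjusted p = 0.0537), though it did in 4 of 9 other settings, and it was at 0.33 without shared probe sets (those with the suffixes _s_at, _x_at or _a_at) and at 0.54 with its probe sets averaged. Prom1 (0.93) did not pass either, nor did Cyp2b13 (-0.14), Slc22a26 (-0.05) and Cux2 (-0.04). Only 2 rose without the filter on dim probe sets. Of 14 genes of the list on the array 5 were too dim to be fitted, and since the filter used all arrays, a high Cre value could bring in a gene that the controls barely expressed.

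The sources used here do not state the sex of the mice. The Y-linked gene Eif2s3y was at 7.70 and 7.75 in the controls, with 8.07 after Cre virus, and Kdm5d, also Y-linked, at 6.03, 6.34 and 6.15. Uty, Y-linked as well, was at 5.37, 5.14 and 5.89. Xist, which is transcribed from the inactive X of females, had its brightest probe set at 3.36, 3.59 and 3.17. All 3 livers thus had Y-linked transcripts and a low Xist signal, with no difference that passed the test.

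**Figure D3:**
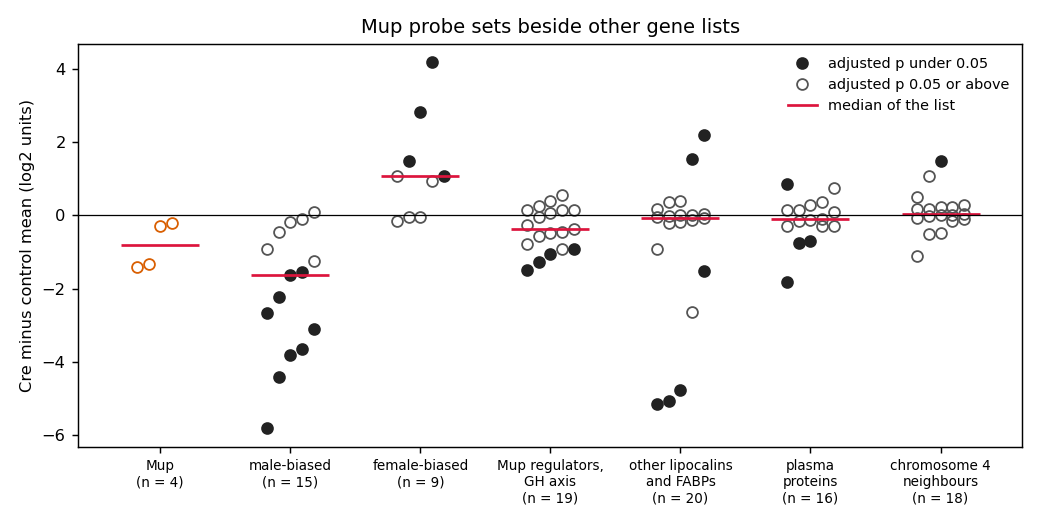
Cre minus control mean in log2 units (vertical axis) for the 4 Mup probe sets and the fitted genes of 6 lists; filled points passed limma's test at an adjusted p under 0.05, and red lines are medians. Of the male-biased genes 9 of 15 are filled and lower, and none of the Mup points is filled.

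Regulators of Mup transcription and of the growth hormone pathway came next. Of 19 fitted genes 4 fell and none rose, and the count was 0 without an intensity trend and 0 without the filter. Ghr, the growth hormone receptor, was at 12.6 and 12.9 in the controls against 11.3 (-1.48 ± 0.14 SE, limma adjusted p = 0.0256), and its other probe sets 1451501_a_at and 1451871_a_at were lower as well (limma adjusted p = 0.00693 and 0.0427). Cebpa (-1.26) and Cebpb (-1.04), whose products are C/EBP factors of hepatocytes, fell, as did Igf1 (-0.91, or -1.65 without shared probe sets), a growth hormone target that encodes a circulating growth factor.

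The factors between receptor and gene did not pass. Jak2, the kinase bound to the receptor, was at 0.25. Stat5b, which carries the male pulsed signal to the nucleus, was at 7.41 and 7.44 in the controls against 7.98 (0.55, limma adjusted p = 0.120), and Stat5a at -0.26. Zhx2, also on the list of regulators, was at 4.97 and 4.91 in the controls, with a difference of 0.06 that did not pass. As means over the probe sets of each gene, Jak2 was at 0.16, Stat5b at 0.36 and Stat5a at -0.06.

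Several genes of the list differed between the control livers as Mup10 did. The controls were at least 1 log2 unit apart in 4 of 19, against 0.615% of all fitted probe sets, and these 4 were picked out after their values were seen. Socs2, a feedback inhibitor induced by growth hormone, was at 6.14 in control 1, 8.62 in control 2 and 7.77 in the Cre liver. Bcl6, a repressor that growth hormone switches off, was at 7.08, 9.49 and 7.52, and Onecut1, which encodes the factor HNF6, at 4.93, 7.33 and 5.75. Igfbp3, an IGF binding protein, was the other, at 6.15, 7.15 and 5.72. In each of the 4, as in Mup10, control 2 was the higher control. It was also the higher in 14 of the 19 fitted genes of this list and in 11 of the 15 male-biased genes. Among 20 fitted genes of other lipocalins and fatty acid binding proteins it was the higher in 9. The share over all fitted probe sets was not computed. The Cre liver lay below both controls in Igfbp3, as in Mup10, and between the controls in Socs2, Bcl6 and Onecut1. None of the 15 male-biased genes had controls so far apart (0.74 at most). The part of this spread in the Mup10 difference was not tested.

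The probe sets nearest in pattern to Mup10 were found among 26014 that name 1 other gene, by the distance over the 3 arrays of values taken from each control mean. They were Lipg, a lipase gene (0.193 log2 units away), Cyp51 (0.229), Slc45a3 (0.238), Rab30 (0.265) and Hsd17b7 (0.285). Cyp51 and Hsd17b7 encode enzymes of cholesterol synthesis. Cyp51 was at 7.77 and 8.92 in the controls, against 7.05, and Lipg at 5.77, 6.93 and 4.93. Their high control 2 and low Cre liver follow from the choice by distance to Mup10. For the bright Mup3 probe set the 5 nearest were Gm3363, Fnbp4, Dcpp3, Zmym5 and Sclt1, all within 0.0042 log2 units, which shows how common so small a pattern is over only 3 arrays.

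**Figure D4:**
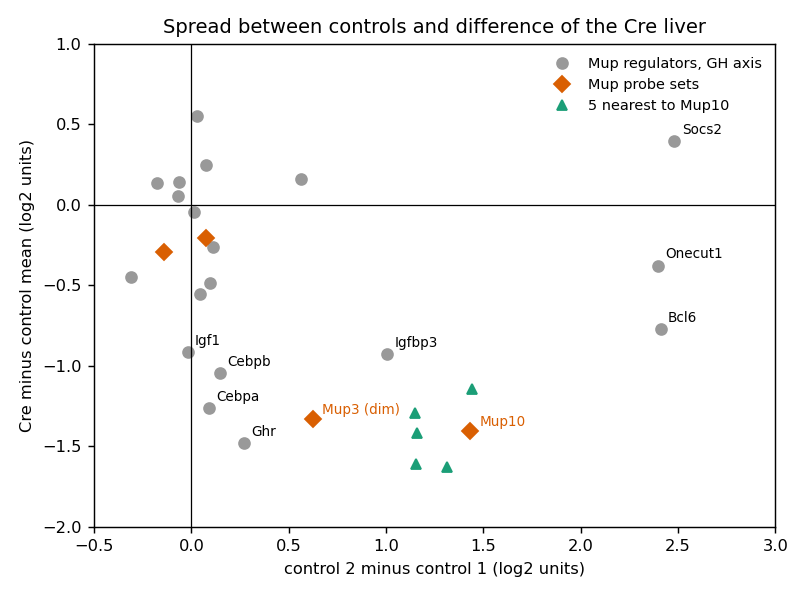
Control 2 minus control 1 (horizontal axis) against Cre minus control mean (vertical axis), both in log2 units, for the Mup probe sets, the fitted growth hormone and Mup regulator genes and the 5 probe sets nearest to Mup10. Mup10 lies at 1.43 and -1.41, and Socs2, Onecut1 and Bcl6 lie farthest right.

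Other lipocalins and the related fatty acid binding proteins spread widely. Of 20 fitted genes 4 fell and 2 rose, with a median of -0.06, and 3 fell and none rose without the filter. C8g, the lipocalin chain of complement component C8, fell by 5.14, and Apom, a lipocalin of lipoprotein particles, fell by 5.07. Fabp2 (-4.76) and Fabp1 (-1.50), which bind fatty acids inside the cell, fell as well. Orm3, an acid glycoprotein gene, rose (2.19), and so did Fabp5, another fatty acid binding protein (1.54). Obp2a, an odorant binding protein, was at 9.03 and 7.57 in the controls against 5.67, a difference of -2.63 ± 0.65 SE that did not pass (limma adjusted p = 0.117, or 0.0147 after median centring and 0.010 after quantile normalization). Like Mup10 it had controls over 1 log2 unit apart, but with control 1 the higher.

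Abundant plasma proteins of hepatocytes gave a measure of secreted products in general. Of 16 fitted genes 3 fell and 1 rose (1 fell and none rose without an intensity trend, and likewise without the filter), with a median of -0.11. After median centring, and also after quantile normalization, 3 fell and 3 rose. Apoa2, an apolipoprotein, fell by 1.81, Apoh fell by 0.74 and Hpx, the heme carrier hemopexin, fell by 0.71. Hp, haptoglobin, rose by 0.85. Fetub, fetuin-B, was at 0.75 (limma adjusted p = 0.0511) and passed in 5 of 8 other settings, and Alb, albumin, was at -0.11. The bright Mup3 probe set, at -0.20, was nearer to Alb than to Apoa2.

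Genes beside the cluster on chromosome 4 were measured too. Slc46a2 and Zfp37, the protein-coding neighbours at its ends, were too dim to be fitted. Of 18 fitted neighbours none fell and 1 rose, with a median of 0.03. That was Hsdl2, a dehydrogenase-like gene of peroxisomes (9.06 and 9.32 in the controls, 10.7 in the Cre liver; limma adjusted p = 0.0312), whose count of 1 was 0 without an intensity trend, without the filter, or without shared probe sets, while 4 neighbours changed after quantile normalization, 2 of them lower. Susd1 was at -1.10 (limma adjusted p = 0.0658) and passed in 5 of 9 other settings. Alad, an enzyme of heme synthesis, was at 1.07 (limma adjusted p = 0.162), at 2.78 without shared probe sets and at 1.92 with its probe sets averaged. It passed with arrays centred on their medians (adjusted p = 0.0426) or quantile normalized (adjusted p = 0.0225). Slc31a1, a copper carrier, was at -0.51 (limma adjusted p = 0.131) and passed in 2 of 9 other settings.

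**Figure D5:**
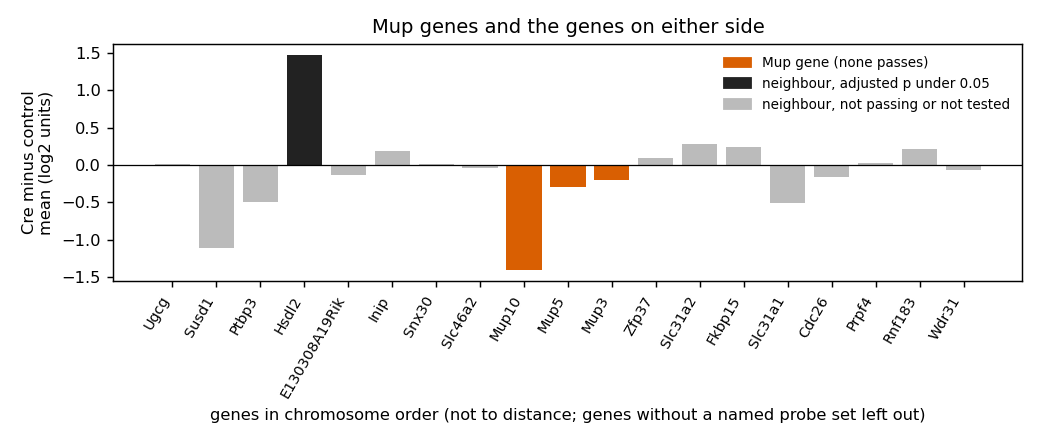
Cre minus control mean in log2 units (vertical axis) for genes with a probe set in their order along chromosome 4, with Mup genes in orange and the brightest probe set standing for Mup3. Hsdl2, at 1.47, is the only neighbour that passed, and Mup10, at -1.41, did not.

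Hepatocyte identity and the share of other cells were checked with marker genes. Of 10 fitted hepatocyte markers 3 fell, with list medians of 13.6 and 13.5 in the controls, against 13.1 in the Cre liver. They were Asgr1, a chain of the asialoglycoprotein receptor (-5.02), Apob, an apolipoprotein (-2.96), and Tat, tyrosine aminotransferase (-1.02), and Ass1 was at -0.80 (limma adjusted p = 0.0592). Over all fitted probe sets 43.3% lay above both controls in the Cre liver and 36.5% below both. Of the 10 hepatocyte markers 4 lay above both, Cps1 (0.33) the farthest, and 6 below both. The median difference of these markers was -0.11, with Alb (-0.11) and Ttr (-0.10) close to it. Of 10 Kupffer cell genes 9 lay above both controls, and 1 rose, Marco, a scavenger receptor (1.88, or 0.77 as the mean of its probe sets). Their medians were 6.73 in control 1, 7.37 in control 2 and 7.71 in the Cre liver, so they also differed between the controls. Above both controls were also 7 of 8 endothelial and 7 of 8 stellate markers, of which none passed (median differences of 0.26 and 0.28). None of 4 bile duct or 6 lymphocyte markers passed either (0.15 and -0.19), with Sox9 of the bile duct list at 2.35 (limma adjusted p = 0.0776; it passed in 4 of 9 other settings). Of the red cell list 1 gene was fitted, Alas2, and it fell by 3.27. The part of cell makeup in the Mup differences was not tested.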

How the data were processed

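The authors deposited log2 expression per probe set, with 1 array per mouse; the submitters' processing notes name RMA and Partek 6.5. RMA corrects background, equalises array distributions and summarises the probes of a set, so a shift shared by all genes is hidden. Base 2 was taken from the range of values, and every fold rests on it. No detection calls were used, and no array batch is given in the sources used here.

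Mup probe sets were found by symbol in the platform annotation, which named 34945 probe sets by 1 gene and 932 by several, and left 9160 unnamed here. For other genes the brightest probe set stood for the gene, with symbols updated by Entrez ID through RefSeq tables (GRCm38.p6), whose positions were used only for gene order and promoter windows. Probe sets whose mean reached the 30th percentile entered the fit with limma 3.58.1 in R 4.3.3 (lmFit, eBayes with an intensity trend), two-sided, with Benjamini-Hochberg adjustment over 31526 probe sets. The controls gave 1 residual degree of freedom and moderation added 3.03; the fit takes the spread of the controls for the single Cre array as well, and the intervals rest on that. An exact permutation test of these 3 arrays cannot go below p = 0.333. All 4 Mup probe sets are described; from each list up to 4 members with the largest difference (fewer from most cell marker lists, which are given by counts), the regulators Hnf4a, Ghr, Stat5b and Zhx2, and members needed to describe a list were named. The members, lists and motifs were chosen with earlier results of these data known. The number of arrays limits the precision. Plots used Python 3.11.15 and matplotlib 3.10.9.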

Additional observations from a re-analysis of the deposited data

How the results depend on the processing

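The 4 Mup probe sets stayed lower in the Cre liver in all 30 values from other settings with a test, and 28 of these stayed on the same side of the threshold. The difference of Mup3 1427631_x_at shrank to -0.08 after quantile normalization. The exceptions to the second count were Mup3 1427249_x_at after median centring and after quantile normalization, which made the count of Mup probe sets that changed 1 in each; the prior degrees of freedom were then 6.45 and 6.90, against 3.03, and the cause was not tested. The Mup count past 1 log2 unit of both controls, 1, was 0 after median centring, after quantile normalization and without _s_at, _x_at and _a_at probe sets (2 Mup probe sets tested), and ranged from 1 to 2 with a control left out. The median Mup difference ranged from -0.94 to -0.53 with a control left out. Over all probe sets 1352 changed; 727 did without an intensity trend, 2551 with robust moderation, 406 without a filter, 3591 after median centring, 3758 after quantile normalization, 884 without shared probe sets, 3259 at an adjusted p under 0.1 and 258 under 0.01. Counts of changed list genes without an intensity trend were 0 for regulators, 1 for plasma proteins and 0 for chromosome 4 neighbours, and without a filter 0 for regulators, 2 for female-biased genes, 3 for lipocalins, 1 for plasma proteins and 0 for neighbours. Neighbours also gave 2 with robust moderation, 2 with a filter at the 50th percentile, 3 after median centring, 4 after quantile normalization, 0 without shared probe sets and 3 with probe sets averaged. With a control left out, Socs2 ranged from -0.85 to 1.63, Bcl6 from -1.98 to 0.44, Onecut1 from -1.58 to 0.82, Cyp4a12a from -0.42 to 0.058 and Kdm5d from -0.18 to 0.12. No paired analysis was possible because the Cre group was 1 mouse, and the sources used here give no pairing of mice. Dim probe sets, Mup3 1427249_x_at among them, lie near the array background, where RMA compresses differences.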
